A study of Rattus norvegicus with 6 samples.

Results

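RNA levels of 6 genes of iron handling and ferroptosis were followed in rat kidney, out of 21986 genes in the deposited table. They were chosen by name for their place in these pathways, with earlier results of these data known. The table carries Ensembl identifiers and no symbols, so the genes were found by identifier: Tfrc (ENSRNOG00000001766), Fth1 (ENSRNOG00000022619), Cp (ENSRNOG00000011913), Gpx4 (ENSRNOG00000013604), Acsl4 (ENSRNOG00000019180) and Slc7a11 (ENSRNOG00000010210). All 6 were present, and each lay on the chromosome known for its symbol: 11 for Tfrc, 1 for Fth1, 2 for Cp and Slc7a11, 7 for Gpx4 and X for Acsl4. The chromosome was the only check of these pairs that could be made. A mean of at least 0.5 FPKM over all libraries was required for testing. FPKM gives the fragments of a gene relative to its length and to all mapped fragments of the library, so levels of different genes can be compared. Of the 6 genes, 5 passed, and Slc7a11 did not.

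The kidneys came from male wild-type Wistar rats, in 3 control libraries and 3 libraries of a model of focal segmental glomerulosclerosis (FSGS), in which parts of the filtering units scar. Rats of the model had the left kidney removed and were injected in the tail vein with adriamycin, an anthracycline toxic to glomerular cells, first at 5 mg/kg, 7 days after surgery, and again at 3 mg/kg, 28 days after it. Controls were injected with saline, and no surgery is described for them, so kidney removal and drug cannot be told apart in any result below. The sample titles call every sample untreated, and the groups follow the group name in the titles. Ages are not given. Nor do the labels state that the libraries come from separate animals, and if they do not, the p-values reflect a spread that is in part technical.

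Ferroptosis is a form of cell death in which iron drives the oxidation of polyunsaturated phospholipids in membranes. ACSL4 activates the fatty acids that make those phospholipids oxidizable, while the selenoenzyme GPX4 uses glutathione to reduce the lipid peroxides. Glutathione needs cysteine, which cells obtain in part as cystine through the transporter whose light chain is SLC7A11. Free iron is set by uptake through the transferrin receptor (Tfrc), storage in ferritin (Fth1 encodes the heavy chain) and export, which is helped by the ferroxidase ceruloplasmin (Cp). Iron regulatory proteins act on the stability of Tfrc mRNA and on the translation of ferritin mRNA, so the amount of Fth1 mRNA is not the amount of ferritin. Kidney tubule epithelium is known to be sensitive to the loss of GPX4.

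Of the 5 genes tested, Cp and Acsl4 rose in FSGS, Gpx4 fell, and neither Tfrc nor Fth1 passed the test (limma, Benjamini-Hochberg adjusted p under 0.05 over 14139 genes). Cp was 5.40-fold and Acsl4 3.75-fold higher by group means, and Gpx4 was 2.81-fold lower. Over all genes tested, 27.0% rose and 17.0% fell, so 2 rising and 1 falling gene of 5 is close to the background and is no result about the list. In size of change, 138 of the 14139 genes had a higher log2 change than Cp and 360 a higher one than Acsl4. A lower one than that of Gpx4 was found in 507. Since the genes were chosen with earlier results of these data known, these ranks describe them and test nothing. The log2(FPKM + 1) scale also understates changes of low genes. By mean level, Cp, Acsl4 and Gpx4 lay above 92.1%, 76.1% and 95.7% of the genes tested. The median log2 change was 0.15 over these 5 genes and 0.11 over all genes tested. In whole kidney, a change in the number of cells of a type and a change in RNA per cell cannot be told apart.

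**Figure D1:**
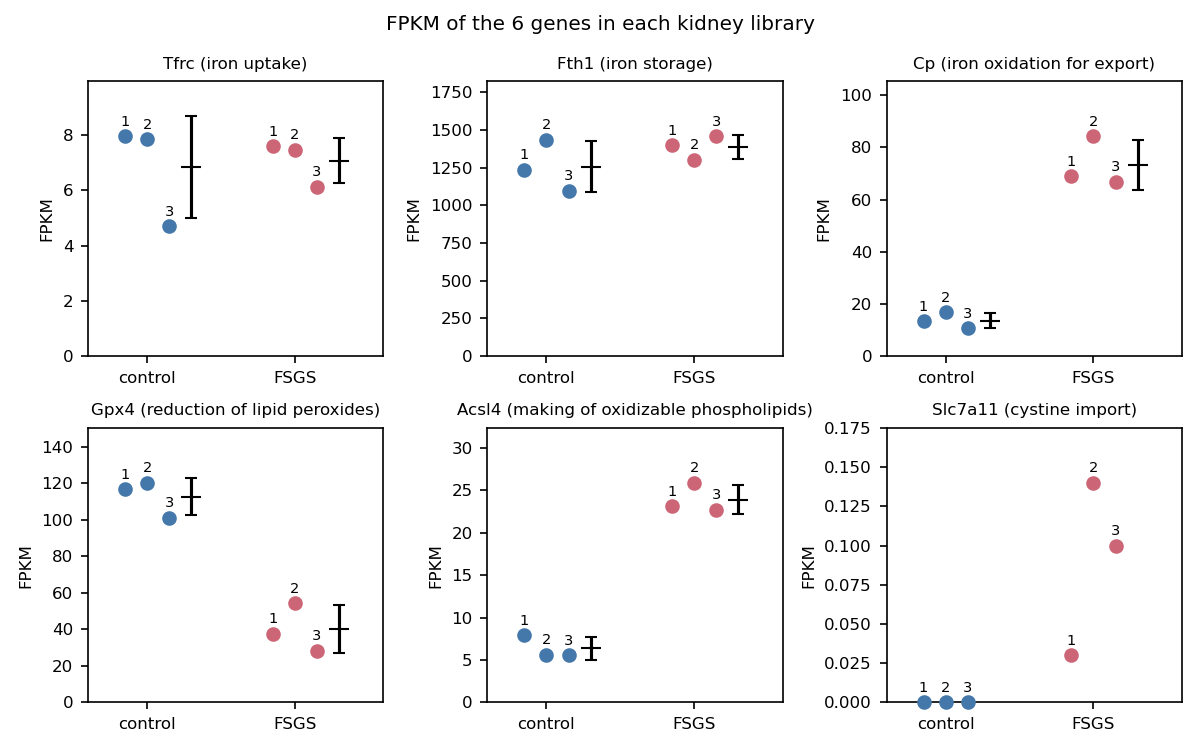
FPKM (vertical axis, from 0, its own scale per panel) of the 6 genes in 3 control and 3 FSGS libraries; points are libraries with their replicate number, and bars give the mean ± SD, left out for Slc7a11. The groups do not overlap for Cp (10.7 to 16.7 against 66.8 to 84.3), Acsl4 and Gpx4, and they overlap for Tfrc and Fth1. Of the 14139 genes tested, 34.6% have every FSGS value above every control value and 21.0% have every FSGS value below.

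The column totals differed between the groups, which bears on every value below. Summed FPKM ran from 614047 to 691777 over the controls and from 754892 to 824403 over the FSGS libraries. Mitochondrially encoded genes took 51.6% to 62.9% of it in controls and 64.0% to 71.7% in FSGS. Control 3 had the highest mitochondrial share of the controls, and it had the lowest FPKM of the controls for each of the 5 genes tested. The levels of all genes shifted too, with a median of 4.58 FPKM over tested genes in control 3, 5.49 and 5.43 in controls 1 and 2, and 5.34 to 6.36 in FSGS. After median-of-ratios scaling, which divides each library by its typical ratio to the others, control 3 was the lowest control for Tfrc and Cp and no longer for Fth1, Gpx4 or Acsl4. The calls for Cp, Acsl4 and Gpx4 were the same under the 4 other scalings tried, and the directions of Tfrc and Fth1 were not.

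On the uptake side, Tfrc, which brings transferrin-bound iron into the cell, showed no difference larger than the spread between replicates. It was at 7.96, 7.86 and 4.70 FPKM in controls 1, 2 and 3, against 7.61, 7.47 and 6.14 FPKM in FSGS 1, 2 and 3. The groups overlapped, and the lowest value of all was that of control 3. The means were 6.84 ± 1.85 and 7.07 ± 0.81 FPKM (SD, n = 3 each). The log2 change was 0.068 ± 0.19 (SE; limma adjusted p = 0.80), with a 95% interval of -0.37 to 0.51. That interval leaves room for a change of either sign, so the level cannot be called equal. The sign turned to -0.15 without control 3, and to -0.049, -0.085 and -0.19 with median-of-ratios scaling, quantile normalization and rescaling to TPM. Within each library, where column scaling plays no part, Tfrc ranked 5571, 5588 and 6927 among 21949 nuclear genes in controls 1, 2 and 3, against 6290, 6083 and 6443 in FSGS 1, 2 and 3. These ranks overlapped as well.

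The promoter sequence of Tfrc holds the core of a hypoxia response element, the letters bound by hypoxia-inducible factors, of which Tfrc is a known target. The stretch is shown with that core in capitals, from RefSeq on build GRCr8 (chr11:81690333-81690362, minus strand, read 5′ to 3′ along the gene), with the core starting 31 bases before the transcription start.
Tfrc: cctcggtaggtgtACGTGcggcaggaagtg

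Fth1, whose protein oxidizes iron and stores it in the ferritin shell, was the most abundant of the 6 genes in every library. It was at 1235, 1436 and 1098 FPKM in controls 1, 2 and 3, against 1398, 1301 and 1458 FPKM in FSGS 1, 2 and 3. All 3 FSGS values lay above controls 1 and 3, and FSGS 1 and 2 lay below control 2. The means were 1256 ± 170 and 1386 ± 78.8 FPKM (SD, n = 3 each), and the log2 change was 0.15 ± 0.16 (SE; limma adjusted p = 0.48; 95% interval -0.21 to 0.51). The size and sign depended on the scaling: the log2 change was -0.14 after rescaling to TPM, 0.01 with median-of-ratios scaling, 0.28 after rescaling without mitochondrial and the 20 most abundant nuclear genes, and 0.34 with quantile normalization, and it passed the test in none of them (limma adjusted p = 0.60, 0.96, 0.16 and 0.056). Single libraries moved it too, to 0.056 without control 3 (limma adjusted p = 0.79) and to 0.25 without control 2 (limma adjusted p = 0.28). By rank among nuclear genes, Fth1 stood at 17, 9 and 15 in controls 1, 2 and 3 but at 6, 7 and 5 in FSGS 1, 2 and 3. These ranks did not overlap between the groups, but every FSGS rank was nearer the top than every control rank in 31.5% of 14102 tested nuclear genes, so this is common here. The FPKM values overlapped as deposited and did not after the rescaling without mitochondrial and the 20 most abundant nuclear genes. Ferritin heavy chain has processed pseudogene copies in mammals, and how reads from such copies were counted is not given in the sources used here, so its level is uncertain to that extent.

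**Figure D2:**
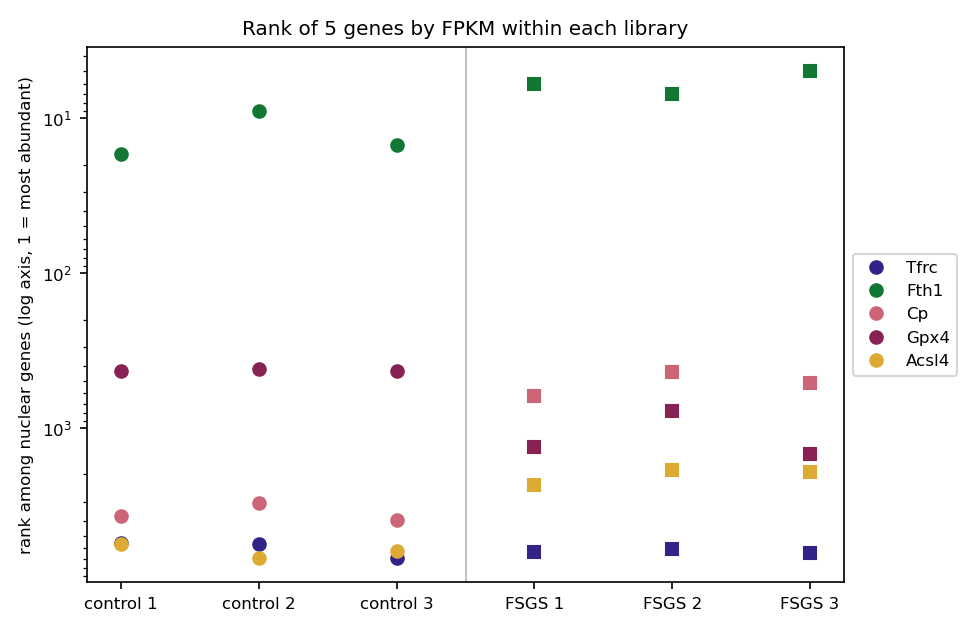
Rank by FPKM among 21949 nuclear genes (vertical axis, log scale, 1 is the most abundant, at the top) for the 5 tested genes in each library (horizontal axis); circles are control and squares FSGS libraries. Cp, Acsl4 and Fth1 stand higher in every FSGS library than in any control, Gpx4 stands lower, Tfrc overlaps between the groups, and Cp passes Gpx4. Of 14102 tested nuclear genes, 31.5% stand higher in every FSGS library than in any control and 29.2% stand lower.

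The ratio of Fth1 to Tfrc, storage against uptake, was taken within each library, where any factor common to a column cancels. Fth1 was 155, 183 and 234 times the level of Tfrc in controls 1, 2 and 3, against 184, 174 and 237 times in FSGS 1, 2 and 3. The groups overlapped almost wholly, and replicate 3 had the highest ratio in each. The mean log2 ratio was 7.55 ± 0.30 in controls and 7.62 ± 0.24 in FSGS (SD, n = 3 each), a difference of 0.066 that is smaller than either SD. The sign of this difference turned without control 1 (-0.072) or without FSGS 3 (-0.070).

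Cp, the copper-containing ferroxidase that oxidizes iron as it leaves the cell, rose most of the 5 genes tested. It was at 13.4, 16.7 and 10.7 FPKM in controls 1, 2 and 3, against 68.9, 84.3 and 66.8 FPKM in FSGS 1, 2 and 3. Each FSGS value was above every control value. The means were 13.6 ± 3.02 and 73.3 ± 9.52 FPKM (SD, n = 3 each), and the log2 change was 2.36 ± 0.18 (SE; limma adjusted p = 3.96e-05; 95% interval 1.96 to 2.77). Every FSGS value lay above every control value in 34.6% of the genes tested, so the lack of overlap alone is common here. Cp ranked 3715, 3070 and 3956 among nuclear genes in controls 1, 2 and 3, against 620, 436 and 512 in FSGS 1, 2 and 3. The move up the ranking was present in each FSGS library, and a factor common to a column cannot change it. It is common here too: in 31.5% of 14102 tested nuclear genes, every FSGS rank was nearer the top than every control rank. Ceruloplasmin is also an acute-phase protein of plasma, made mainly in liver, and these data hold kidney RNA alone.

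Cp is the only 1 of the 5 genes with a promoter window here that holds a TATA box. The stretch is shown with the box in capitals (chr2:104368631-104368660, plus strand, RefSeq, GRCr8), and the box starts 27 bases before the start used in that table. The same letters overlap a match on the other strand, and other Cp transcripts start further upstream.
Cp: taaagccttgttTATAAAattgcttgcttc

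On the lipid side, Acsl4, which activates arachidonic and related fatty acids for membrane phospholipids, rose in FSGS. It was at 7.90, 5.61 and 5.58 FPKM in controls 1, 2 and 3, against 23.1, 25.9 and 22.7 FPKM in FSGS 1, 2 and 3. The FSGS values lay close together, and each was above every control value, as in 34.6% of the genes tested. The means were 6.36 ± 1.33 and 23.9 ± 1.72 FPKM (SD, n = 3 each), and the log2 change was 1.77 ± 0.15 (SE; limma adjusted p = 7.47e-05; 95% interval 1.42 to 2.12). In controls Acsl4 lay at the level of Tfrc, with ranges that overlapped, and in FSGS its lowest value was above the highest value of Tfrc. Its rank among nuclear genes was 5594, 6893 and 6273 in controls 1, 2 and 3, against 2349, 1878 and 1932 in FSGS 1, 2 and 3. Such a lack of overlap in rank, with FSGS nearer the top, was found in 31.5% of 14102 tested nuclear genes.

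The Acsl4 promoter window holds 2 GC boxes, read from the other strand as CCGCCC, and none of the other motifs searched. The upstream box is shown in capitals, starting 108 bases before the start used in the table (chrX:110803352-110803381, minus strand, RefSeq, GRCr8). The second box starts 104 bases before that start and overlaps the end of the first. The annotated gene begins further upstream, so both boxes lie within it.
Acsl4: tgctccccctctCCGCCCgcccctccgggc

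Gpx4, the enzyme that reduces phospholipid peroxides and holds ferroptosis back, fell in FSGS. It was at 117, 120 and 101 FPKM in controls 1, 2 and 3, against 37.7, 54.3 and 28.4 FPKM in FSGS 1, 2 and 3. The groups did not overlap, and the FSGS libraries differed more from each other than the controls did. The means were 113 ± 10.2 and 40.1 ± 13.1 FPKM (SD, n = 3 each), and the log2 change was -1.51 ± 0.22 (SE; limma adjusted p = 0.000771; 95% interval -2.01 to -1.02). Every FSGS value lay below every control value in 21.0% of the genes tested. On the log2 scale the SD was 0.13 in controls and 0.46 in FSGS, with FSGS 2 highest and FSGS 3 lowest. FSGS 2 was also the highest FSGS library for Cp and Acsl4, and with median-of-ratios scaling it was still the highest for these 3 genes. A stricter test that asks for a log2 change beyond 1 did not call Gpx4 (limma treat adjusted p = 0.29), while it did call Cp and Acsl4 (0.00165 and 0.0133). Gpx4 ranked 427, 414 and 432 among nuclear genes in controls 1, 2 and 3, a narrow range, and 1321, 774 and 1475 in FSGS 1, 2 and 3. Every FSGS rank was nearer the bottom than every control rank in 29.2% of the tested nuclear genes.

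As the 1 gene of the 6 that fell, Gpx4 is shown with 250 bases before its outermost transcription start (chr7:10303630-10303879, minus strand, RefSeq, GRCr8), with CCAAT boxes on either strand in capitals. The stretch is 64.8% G and C and holds 2 CCAAT boxes, the first read on the other strand as ATTGG, and no TATA box.
Gpx4: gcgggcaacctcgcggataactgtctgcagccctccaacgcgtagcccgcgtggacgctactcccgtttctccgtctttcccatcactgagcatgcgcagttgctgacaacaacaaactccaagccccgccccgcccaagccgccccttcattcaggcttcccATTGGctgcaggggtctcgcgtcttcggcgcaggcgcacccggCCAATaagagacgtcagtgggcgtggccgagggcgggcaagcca

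Of the 6 genes, 5 had a promoter window in the RefSeq table, 250 bases before to 50 after a start; Gpx4 had 3 windows and Tfrc, Cp, Acsl4 and Slc7a11 had 1 each, 7 in all. Fth1 had none. The antioxidant response element core TGACNNNGC, the letters recognized by NRF2, was in 0 of the 7 windows and in 12.1% of 33465 windows of all genes (both strands searched). The CCAAT box was in 4 of the 7 and in 37.5% of all windows, the GC box GGGCGG in 5 and 33.1%, the hypoxia response element core ACGTG in 1 and 19.3%, the NRF1 core GCATGCGC in 1 and 2.47%, and the TATA box TATAAA in 1 and 14.2%. The Gpx4 windows overlap one another in part, so these are not independent counts. A match describes letters alone, and the absence of a match says only that the letters are not in that window. The windows of Cp and Slc7a11 lie wholly within their annotated genes. The bases before the outermost starts of these genes were thus not searched, nor was any part of Fth1, so 0 of 7 does not describe their whole promoters. In their windows, Cp and Acsl4, which rose together, shared none of the 6 motifs searched.

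**Figure D3:**
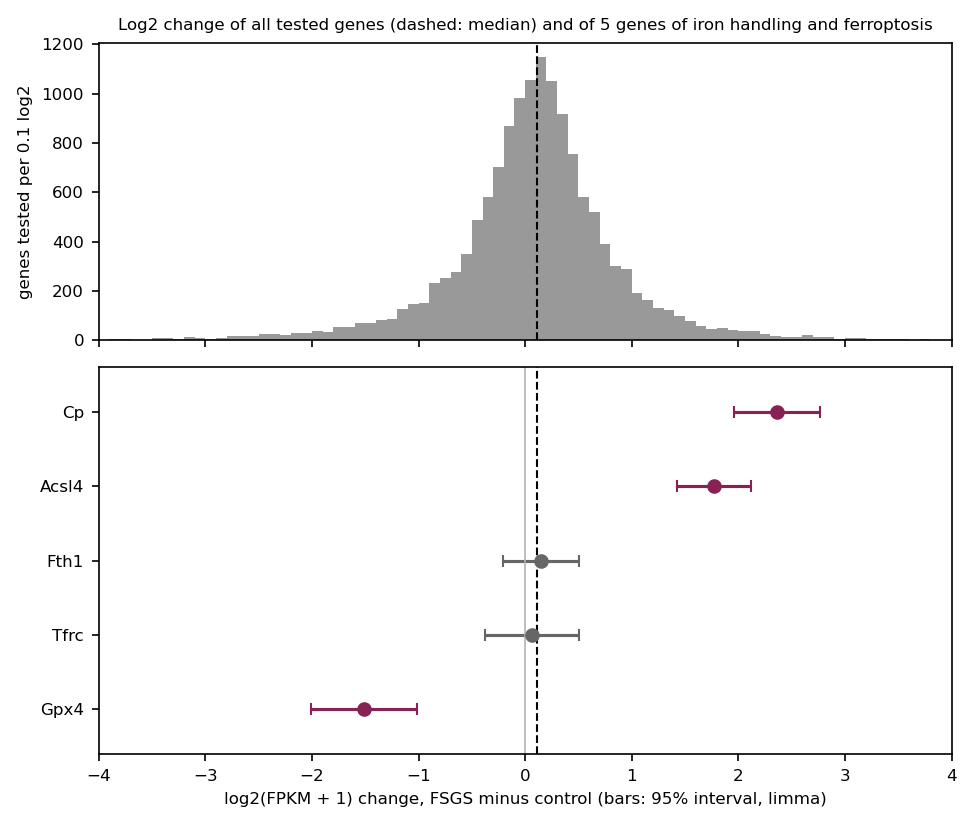
Top, number of tested genes by log2(FPKM + 1) change, FSGS minus control, with the median of 0.11 dashed (38 genes lie outside the axis). Bottom, the change of the 5 tested genes with 95% intervals from limma; the intervals of Cp, Acsl4 and Gpx4 lie away from 0 and those of Tfrc and Fth1 include it.

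Acsl4 and Gpx4 act on opposite sides of lipid peroxidation, and their ratio within a library was far higher in FSGS. Acsl4 was 0.0677, 0.0467 and 0.0552 times the level of Gpx4 in controls 1, 2 and 3. It was 0.614, 0.476 and 0.799 times that level in FSGS 1, 2 and 3. The mean log2 ratio was -4.16 ± 0.27 in controls and -0.70 ± 0.37 in FSGS (SD, n = 3 each), a difference of 3.46. Gpx4 stayed above Acsl4 in all 6 libraries, with FSGS 3 the nearest to equal levels. The ratio is not a test of its own, since it joins the 2 changes given above.

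**Figure D4:**
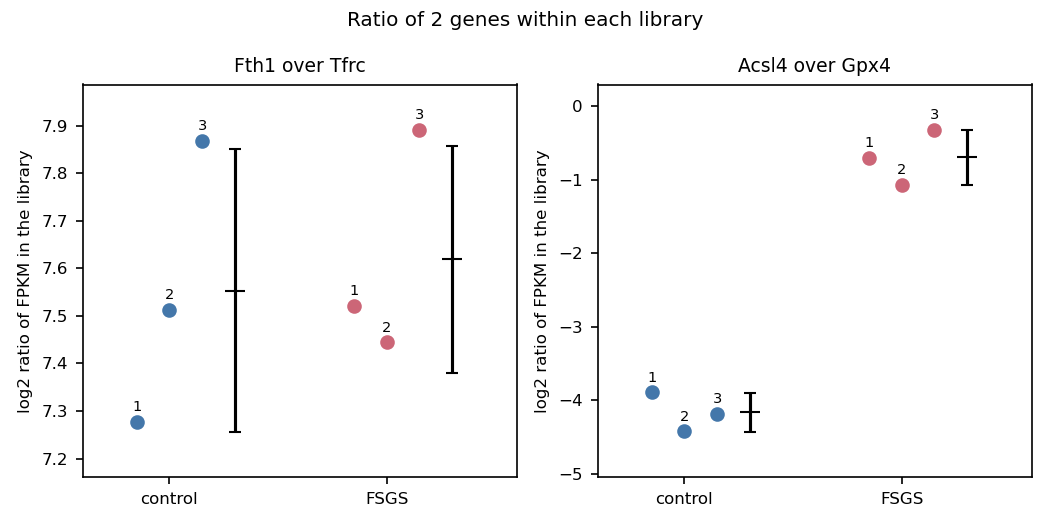
Log2 ratio of FPKM within each library (vertical axis) for Fth1 over Tfrc, left, and Acsl4 over Gpx4, right; points are libraries with their replicate number, bars the mean ± SD of 3. Fth1 over Tfrc overlaps between the groups, while Acsl4 over Gpx4 is -4.42 to -3.89 in controls and -1.07 to -0.32 in FSGS.

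Slc7a11, the cystine-importing light chain of system xc-, was at the lower end of the table. It was listed at 0 in all 3 controls and at 0.03, 0.14 and 0.10 FPKM in FSGS 1, 2 and 3. Because a 0 in FPKM can be a failed estimate and depth is unknown, no fold is given. Of 1846 genes listed at 0 in all 3 controls, 9.48% were above 0 in all 3 FSGS libraries, as Slc7a11 was. With no filter on low values, limma over 21509 genes gave it an adjusted p of 0.082 (unadjusted p = 0.0282), which does not pass the threshold.

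The order of the genes by level changed between the groups. In controls it was Fth1, Gpx4, Cp, then Tfrc and Acsl4 with overlapping ranges, then Slc7a11. In FSGS it was Fth1, Cp, Gpx4, Acsl4, Tfrc and Slc7a11, with no overlap between neighbours in FPKM. Cp and Gpx4 thus changed places: Gpx4 was above Cp in each control, and Cp was above Gpx4 in each FSGS library.

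The tested nuclear gene whose log2 values over the 6 libraries were most like those of Cp was ENSRNOG00000008937 on chromosome 13, which went from 48.5 ± 4.62 to 116 ± 7.07 FPKM. For Gpx4 it was ENSRNOG00000008566 on chromosome 5, which went from 33.4 ± 1.98 to 21.6 ± 3.23 FPKM (SD, n = 3 each). Likeness was Pearson's r of log2(FPKM + 1), and 257 of 14101 genes reached 0.99 or more with Cp and 15 with Gpx4. The 6 libraries form 2 separate groups, so such a measure mostly reflects the step between the groups.

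**Figure D5:**
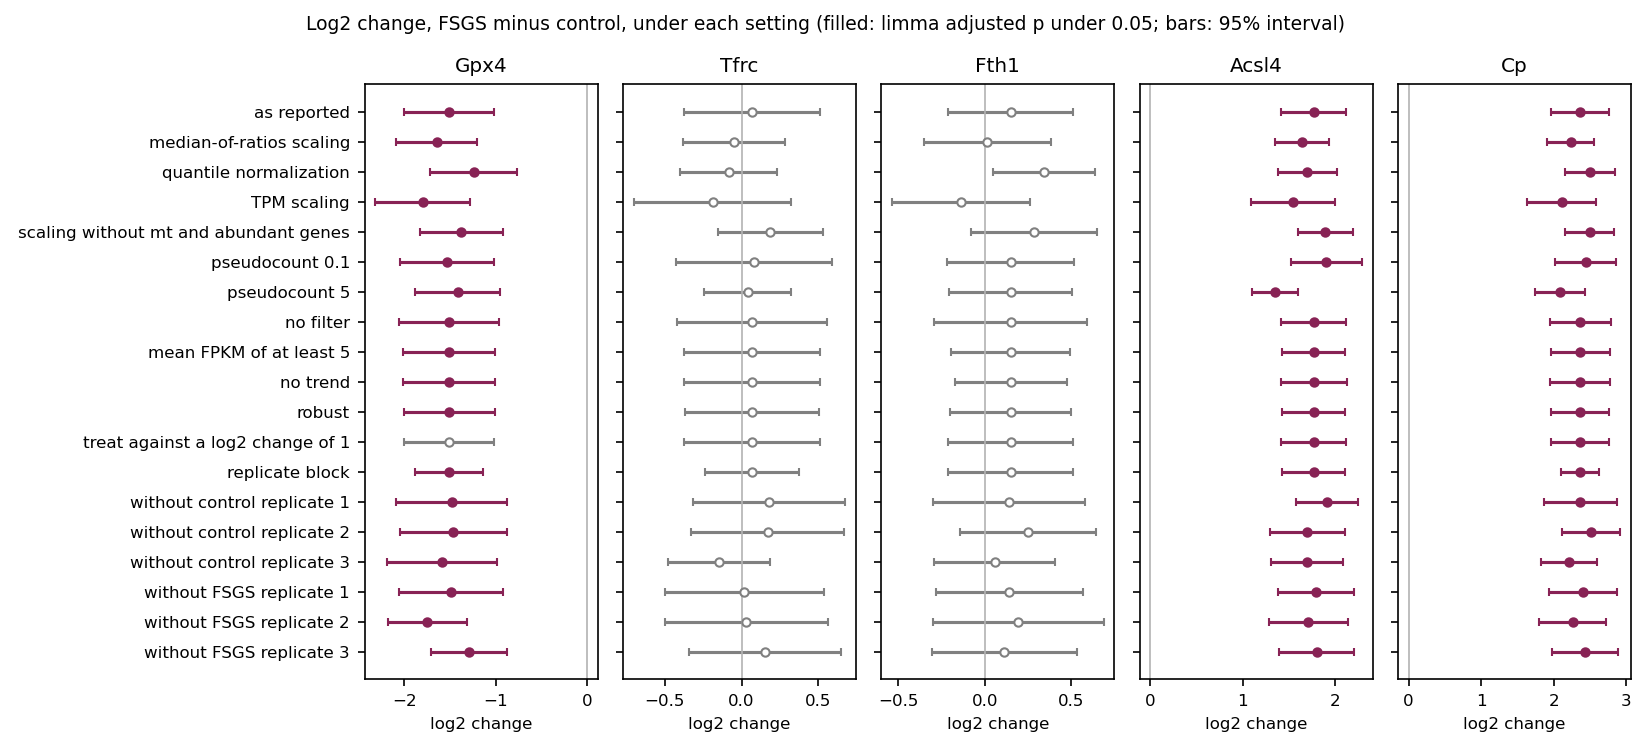
Log2 change, FSGS minus control, with 95% intervals (horizontal axis, its own scale per panel) of the 5 tested genes under the reported setting and each alternative (vertical axis); filled points passed limma's test. Cp and Acsl4 are filled throughout, Gpx4 in all but the test against a log2 change of 1, and Tfrc and Fth1 in none.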

How the data were processed

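Kidney RNA of 3 control and 3 FSGS rat samples was analysed from 1 deposited table of FPKM values, which the authors had divided by gene length and by the library's total fragments, per the file headers. Per the labels' protocols, libraries were poly(A)-selected, dUTP strand-marked and sequenced as paired ends. Tools named in the submitters' processing notes, with no role given, are StringTie 2.1.6, HISAT2 2.2.1, cutadapt 1.9, edgeR and DESeq2; build and annotation of the genome are not given in the sources used here. Sequencing depth cannot be read from FPKM, so counting error is not given.

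Values were transformed as log2(FPKM + 1), which understates changes of low genes. limma 3.58.1 in R 4.3.3, with group alone and a mean-variance trend, was fitted to the 14139 of 21986 genes with a mean of at least 0.5 FPKM, with Benjamini-Hochberg adjustment over all of them (threshold 0.05). The fit was tested on simulated data. Changes are FSGS minus control. Figures used matplotlib 3.10.9. Alternatives covered scaling, pseudocount, filter, limma options, a replicate block and each library left out.

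The members and lists were chosen with earlier results of these data known. All 6 members are named. No table used here pairs identifiers with symbols (0 Ensembl IDs in the RefSeq table, assembly GRCr8), so the wider lists of iron, ferroptosis and cell type marker genes were not analysed here, and the tissue label was not checked against markers.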

Additional observations from a re-analysis of the deposited data

How the results depend on the processing

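The count of 2 rising genes was the same under all 18 alternatives and that of 1 falling gene under 17; in the test against a log2 change of 1, which asks for a larger change by construction, 0 fell. Log2 changes ranged from 2.08 to 2.51 for Cp, 1.35 to 1.91 for Acsl4 and -1.80 to -1.24 for Gpx4. Signs turned for Tfrc with median-of-ratios scaling (-0.049), quantile normalization (-0.085) and TPM (-0.19), and for Fth1 with TPM (-0.14); leaving out single libraries, Tfrc ran from -0.15 (without control 3) to 0.18 (without control 1). Neither gene was called in any setting. The difference in log2 ratio of Fth1 to Tfrc ran from -0.072 to 0.22 over the libraries left out, below 0 without control 1 or FSGS 3. For Acsl4 to Gpx4 it was 2.77 with a pseudocount of 5, which draws low values together. The planned ratio of Slc7a11 to Gpx4 has no value, since Slc7a11 is listed at 0 in controls. Over all genes, 3814 rose and 2408 fell as reported. At a mean of at least 5 FPKM, where fewer genes were tested, 2068 rose and 1604 fell, and in the test against a log2 change of 1 these were 362 and 316. Median-of-ratios scaling gave 3463 up and 3485 down (median log2 change 0.0067), quantile normalization 3620 and 3386 (0.0063), TPM 2012 and 3191 (-0.12), and scaling without mitochondrial and abundant genes 5606 and 2298 (0.22); the cause was not tested. With a replicate block in the model, 4162 rose and 2738 fell, and the calls of the 5 genes were the same. The SE of each of these 5 was smaller with the block. The numbers were not taken as pairs, since the titles give replicate numbers and name no pairs. Deviations from group means correlated at 0.13, 0.032 and 0.023 for numbers 1, 2 and 3. Between different numbers they correlated at -0.12 to 0.090, mostly below 0, with control 2 and FSGS 3 the highest. These small values do not settle whether the numbers are pairs. The limit that depth sets on low genes such as Slc7a11 is unknown.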
